A study of Mus musculus with 4 samples.

Results

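Miat, Malat1, Neat1, Tug1, Rmst and Snhg11 are long noncoding RNAs of the nervous system, long transcripts that work as RNA, mostly in the nucleus. They were looked up by symbol and make up 6 of the 23336 genes in the expression table of the study. The set was chosen by values of these data. Miat is among the 17 genes that the authors' deposited table calls different between the genotypes, and the other 5 were set beside it as neural noncoding RNAs. The genotype difference of the 6 is therefore a description, and calls over all genes are only set beside it.

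RNA-seq was done on retina of C57/Bl6 mice at postnatal day 8, with 2 wild-type (WT) littermate libraries and 2 libraries of Opn4-DTA/DTA mice. In the latter both copies of Opn4, the gene of the photopigment melanopsin, carry the diphtheria toxin A chain, which kills the cells that make it. In this design the loss of melanopsin and the loss of the melanopsin ganglion cells cannot be told apart. The toxin is made where Opn4 is active, which in retina is a small class of ganglion cells. The sources call the material both dissociated retinal cells and whole retinal extract. The labels do not tie the libraries of a group to separate mice, so the spread between the WT libraries may be technical. The Opn4-DTA/DTA libraries differ in Xist, as given below, and so hold different animals. In whole tissue, fewer cells of a type and less RNA per cell cannot be told apart.

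Long noncoding RNAs of this kind organize the nucleus. Malat1 sits in nuclear speckles, which store splicing factors. Neat1 is the backbone of paraspeckles, bodies that hold RNA-binding proteins. Miat, also named Gomafu or Rncr2, binds splicing factors and was first studied in the mouse retina, where its loss led to more amacrine cells and Muller glia. Tug1 was found in mouse retina as a taurine-induced transcript needed by photoreceptors. Human RMST binds the transcription factor SOX2 and promotes neurogenesis. Snhg11 carries small nucleolar RNAs in its introns.

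The sequences shown first are those that set Miat and the pair Malat1 and Neat1 apart in this set. They were read from GENCODE M21 transcripts on GRCm38, the assembly behind the mm10 coordinates of the table, 5′ to 3′. Miat carries the heptamer TACTAAC, the branch-point sequence to which the splicing factor SF1 binds. Its longest annotated transcript has 9163 bases and 7 exons and holds 6 copies on the sense strand and 0 on the other. All 6 lie in exon 7, in a pair of clusters of 3. The first cluster is chr5:112217309-112217460 on the minus strand and the second is chr5:112216752-112216812 on the minus strand. Capitals mark the heptamer.
Miat cluster 1: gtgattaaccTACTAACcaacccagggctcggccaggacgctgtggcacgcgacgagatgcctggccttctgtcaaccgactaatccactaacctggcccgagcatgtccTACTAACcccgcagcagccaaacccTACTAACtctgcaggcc
Miat cluster 2: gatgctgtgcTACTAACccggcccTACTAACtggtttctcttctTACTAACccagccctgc

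The heptamer was searched on the sense strand of the longest transcript of each of 55341 annotated genes. At least 1 copy was found in 2530 genes (4.57%) and 6 or more copies in 3 genes (0.00542%). Long transcripts have more matches by length alone. Among 501 genes with a transcript within 10% of the length of Miat, 101 (20.2%) held the heptamer, and Miat itself was the only one with 6 copies. Of the other members, the long form of Neat1 with 20771 bases held 1 copy. The longest transcripts of Malat1, Tug1, Rmst and Snhg11 and the short form of Neat1 held 0. The core ACTAA, which is part of the heptamer, occurs 14 times in the Miat transcript, 13 times in the long form of Neat1, 8 times in Tug1, 7 times in Snhg11 and 5 times in Malat1 and in Rmst. The core, unlike the heptamer, thus does not set Miat apart. These are matches of letters and do not show binding.

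**Figure D1:**
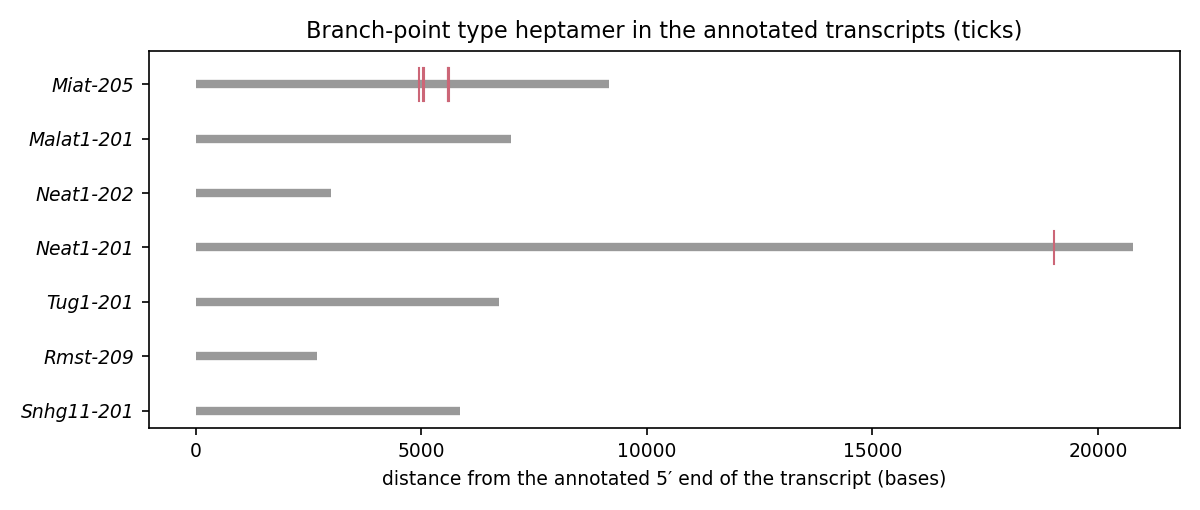
Position of the branch-point type heptamer (red ticks) along annotated transcripts of the 6 noncoding RNAs (grey bars, with GENCODE transcript names), in bases from the annotated 5′ end. Miat has 6 copies between 4941 and 5623 bases, the long form of Neat1 has 1 at 19014 bases, and the other transcripts have 0.

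The 3′ ends matter here because the libraries were made from polyadenylated RNA by oligo-dT selection, per the labels' protocols. Malat1 and the long form of Neat1 are not polyadenylated at their main 3′ end. There they are cut upstream of a tRNA-like RNA, and U-rich stretches pair with an A-rich tail to protect the end. The Malat1 stretch is chr19:5795924-5796076 on the minus strand. Its capitals mark the tRNA-like mascRNA as annotated by RefSeq, and the A-rich tract stands just before it.
Malat1 processing region: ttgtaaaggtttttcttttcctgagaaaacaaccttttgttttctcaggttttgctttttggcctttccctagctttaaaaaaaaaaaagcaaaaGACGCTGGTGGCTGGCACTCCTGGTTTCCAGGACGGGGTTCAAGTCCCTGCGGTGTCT

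The 2 forms of Neat1 end differently. The last 60 bases of the short form, chr19:5842307-5842366 on the minus strand, hold a poly(A) signal AATAAA, in capitals. The last 60 bases of the long form, chr19:5824708-5824767 on the minus strand, hold neither AATAAA nor ATTAAA.
Neat1 short form end: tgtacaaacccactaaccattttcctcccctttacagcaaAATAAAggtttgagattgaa
Neat1 long form end: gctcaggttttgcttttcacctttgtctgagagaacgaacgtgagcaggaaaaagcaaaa

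The deposited location of Neat1, chr19:5842302-5845478, covers the short form only. The annotated transcripts of Miat, Malat1, Tug1, Rmst and Snhg11 that were searched each had 1 such signal in the last 40 bases. What follows is thus a measurement of RNA that oligo-dT could capture.

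The levels per library were recovered from the group means that the authors deposited, and are normalized counts, gene counts divided by a size factor per library. Which sample label belongs to which recovered library is unknown. Within a group, a stands for the library of larger size factor and b for the other. Total counts were 22202382 to 28726275 in WT and 32032295 to 60833968 in Opn4-DTA/DTA. Opn4, the targeted gene, had 369 and 161 counts in the WT libraries and 1 and 0 in the Opn4-DTA/DTA libraries, which matches the labels. Xist, the noncoding RNA of the inactive X chromosome, stood at 61811 and 78208 normalized counts in WT, and at 47.0 and 96533 in Opn4-DTA/DTA libraries a and b. Opn4-DTA/DTA library a thus has the low Xist level of male tissue, unlike the other 3 libraries, and the difference of each member between genotypes was also computed without it. The 4 libraries correlated with each other at 0.989 to 0.993 (Pearson, log2 values across the genes tested).

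Levels of different RNAs were compared per kilobase of annotated exon inside the deposited location. Malat1 stood highest, at a mean over the 4 libraries of 1359 normalized counts per kilobase, and Tug1 followed at 1156. Miat stood at 655 and Snhg11 at 640, and neither pair of neighbours was separated beyond the spread of the libraries. Malat1 lay above Tug1 in 3 libraries and below it in Opn4-DTA/DTA library b (1046 against 1159 per kilobase). Miat lay below Snhg11 in WT library a (583 against 710) and above it in the other 3. The order depends on the length used. Over the longest annotated transcript Snhg11 stood at 929, Tug1 at 926 and Miat at 633 per kilobase. Neat1 and Rmst were far lower, at 49.4 and 25.7 per kilobase. Over the longest transcript they stood at 7.55 and 59.3, in the reverse order. Among 476 long noncoding RNAs with a length, the ranks were 12 for Malat1, 13 for Tug1, 28 for Miat, 29 for Snhg11, 210 for Neat1 and 296 for Rmst. In the RNA captured and counted here, the name of abundant noncoding RNAs therefore holds for 4 of the 6 and not for Neat1 and Rmst. For Neat1 the deposited location covers the short form only, so the level of the long form is not known. Together the 6 took 783 and 792 of every 1000000 counts in WT libraries a and b, and 929 and 771 in Opn4-DTA/DTA.

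Annotation differs for part of the set. RefSeq lists all 6 as long noncoding RNA. GENCODE M21 lists Snhg11 as protein coding and Tug1 as antisense. The deposited location of Tug1 covers 5.386 kb of exon. Divided by the full length of the annotated exons that overlap that location, which reach beyond it, the same counts give 639 per kilobase.

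Miat lay higher in both Opn4-DTA/DTA libraries than in both WT libraries. It is a lincRNA gene at chr5:112213228-112228948 on the minus strand (mm10). Its level was 5155 and 4681 normalized counts in WT libraries a and b, and 7072 and 6275 in Opn4-DTA/DTA libraries a and b. The groups did not overlap, and the lowest Opn4-DTA/DTA library stood well above the highest WT library. As means the levels were 4918 ± 335 in WT and 6674 ± 563 in Opn4-DTA/DTA (SD, n = 2), a ratio of 1.36 and a log2 difference of 0.44 (SE 0.10). This value belongs to those on which the set was chosen. The difference stayed between 0.35 and 0.53 on the log2 scale with any single library left out, and was 0.35 without the library of low Xist. In the authors' deposited table the shrunken log2 fold change of Miat is 0.30 with an adjusted p of 0.00805.

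Ratios of Miat to the other abundant RNAs within a library do not depend on the scaling. They hold the values on which Miat was chosen, so they are description and no further support. Miat stood at 0.889 and 0.670 times Tug1 in WT libraries a and b, and at 1.21 and 1.01 times in Opn4-DTA/DTA. Against Snhg11 the ratio was 0.852 and 1.05 in WT and 1.14 and 1.23 in Opn4-DTA/DTA. Such ratios do not show which of the RNAs differed.

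**Figure D2:**
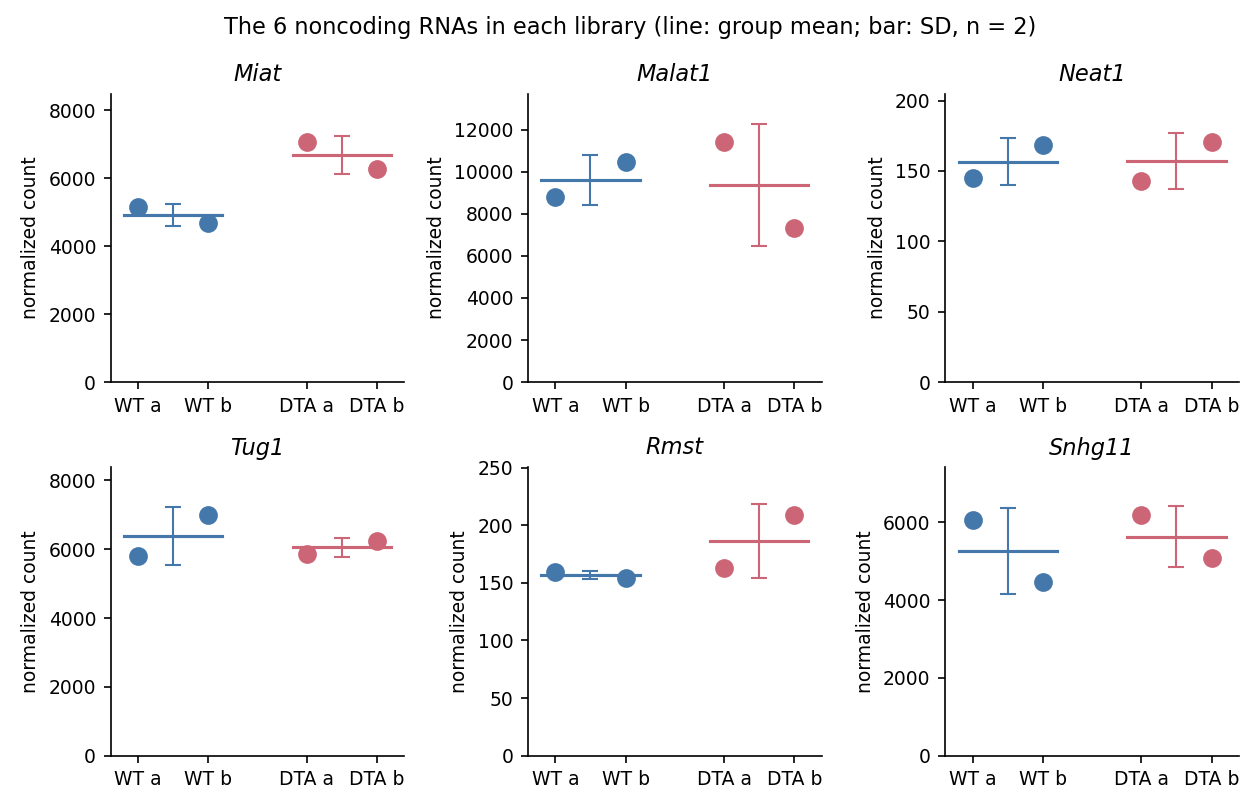
Normalized counts of the 6 noncoding RNAs in each recovered library (points; WT blue, Opn4-DTA/DTA red), with the group mean (line) and SD (bar, n = 2); each panel has its own axis starting at 0. The groups lie apart for Miat and, by a small gap, for Rmst, and overlap for the other 4.

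Malat1, the most abundant of the 6, showed the widest spread among the Opn4-DTA/DTA libraries. This single-exon lincRNA lies at chr19:5795690-5802671 on the minus strand. It stood at 8781 and 10451 normalized counts in WT libraries a and b, and at 11426 and 7302 in Opn4-DTA/DTA. The highest and the lowest value were thus the Opn4-DTA/DTA libraries, with WT between them. Means were 9616 ± 1181 in WT and 9364 ± 2916 in Opn4-DTA/DTA (SD, n = 2), a log2 difference of -0.07 (SE 0.20). The gap between Opn4-DTA/DTA libraries a and b was 0.65 on the log2 scale, wider than that of 97.5% of the 15003 genes tested. Leaving out Opn4-DTA/DTA library b gave a log2 difference between genotypes of 0.25, leaving out library a gave -0.39, and leaving out WT library b gave 0.06, so no direction can be given.

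Neat1, whose deposited location covers the short form only, was low in both genotypes, with nearly equal means. It lies 39.6 kb from Malat1 on the same strand, at chr19:5842302-5845478. Its level was 145 and 168 normalized counts in WT libraries a and b, and 143 and 171 in Opn4-DTA/DTA. In each group library b was the higher, and the ranges of the groups nearly coincide. These rest on 110 to 262 counts per library. Means were 157 ± 16.5 in WT and 157 ± 19.7 in Opn4-DTA/DTA (SD, n = 2). The log2 difference had an SE of 0.19 and ranged from -0.13 to 0.13 as each library was left out. Malat1 stood at 60.5 and 62.1 times Neat1 in WT, and at 79.9 and 42.7 times in Opn4-DTA/DTA libraries a and b.

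Tug1 differed less between the genotypes than between the WT libraries. It lies at chr11:3643268-3648808 on the minus strand, and its gene in GENCODE spans chr11:3639785-3649673. It stood at 5801 and 6992 normalized counts in WT, and at 5863 and 6241 in Opn4-DTA/DTA, both inside the WT range. Means were 6397 ± 842 and 6052 ± 267 (SD, n = 2), a log2 difference of -0.07 (SE 0.11). The difference was 0.06 without WT library b and lay between -0.21 and -0.03 with any of the other 3 left out.

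Rmst was the second member whose groups lay apart. Its level per kilobase was the lowest of the 6 inside the deposited locations. Divided by the full length of the annotated exons that overlap the deposited location, Neat1 comes to 7.55 against 25.7 for Rmst. For Rmst these exons add no bases, and exons of its gene beyond the location were left out. The deposited location of Neat1 covers the short form only, so 7.55 is not a level of the whole gene. Rmst is a lincRNA that spans chr10:92081746-92165178 on the minus strand, with 13 exons in the annotated transcript that has most. It stood at 159 and 155 normalized counts in WT libraries a and b, and at 163 and 209 in Opn4-DTA/DTA. Opn4-DTA/DTA library a lay just above the WT libraries and library b clearly above them. These rest on 137 and 101 counts in WT and 299 and 204 in Opn4-DTA/DTA. Means were 157 ± 3.12 and 186 ± 32.2 (SD, n = 2), a log2 difference of 0.23 (SE 0.19). Without Opn4-DTA/DTA library b the log2 difference was 0.06, and without library a it was 0.41, so that its size rests on library b.

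The microRNA genes of the Rmst locus were hardly seen in these libraries. Mir1251, inside the gene, had 0 and 0 counts in WT and 2 and 0 in Opn4-DTA/DTA. Mir135a-2, 9.56 kb outside the deposited location but inside the GENCODE gene, which starts at 92071037, had 0 and 1 counts in WT and 6 and 3 in Opn4-DTA/DTA. Such counts come from polyadenylated RNA and do not measure mature microRNAs.

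Snhg11 varied more between libraries of the same genotype, by 0.44 in WT and 0.28 in Opn4-DTA/DTA on the log2 scale, than between genotypes. It lies at chr2:158375638-158386145 on the plus strand. It stood at 6053 and 4475 normalized counts in WT, and at 6189 and 5084 in Opn4-DTA/DTA libraries a and b. Library a was the higher in each group, and the ranges overlapped. Means were 5264 ± 1116 and 5637 ± 781 (SD, n = 2), a log2 difference of 0.11 (SE 0.16). The sign changed with the library left out, from -0.11 without WT library b to 0.33 without WT library a.

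**Figure D3:**
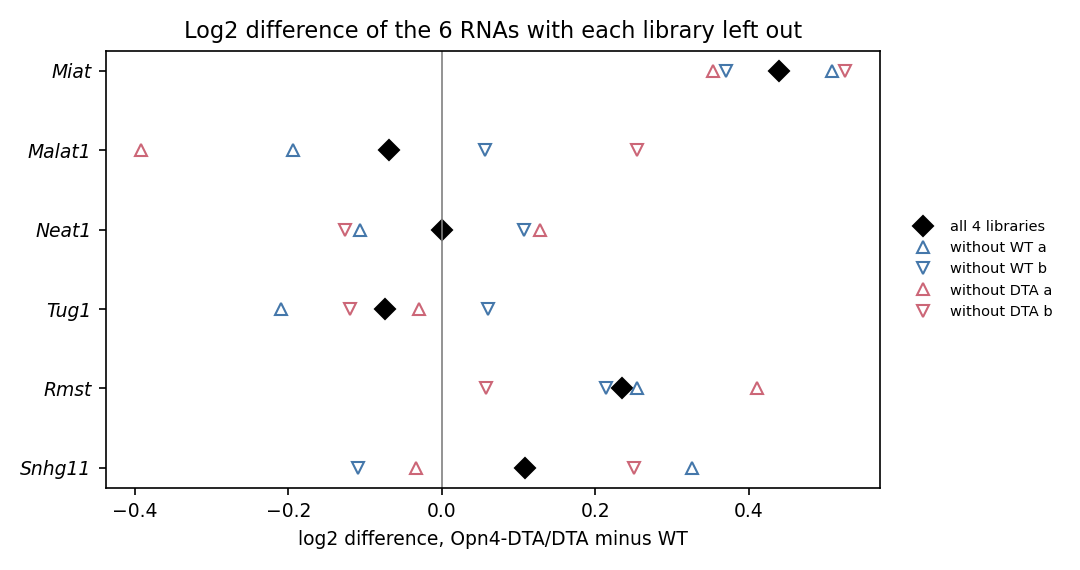
Log2 difference of each noncoding RNA, Opn4-DTA/DTA minus WT, from all 4 libraries (black diamonds) and with each library left out in turn (triangles; blue for WT and red for Opn4-DTA/DTA, up for library a and down for b). The 4 values of Miat lie between 0.35 and 0.53 and those of Rmst between 0.06 and 0.41, whereas Malat1, Neat1, Tug1 and Snhg11 have values on both sides of 0.

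The counts of calls over the set are set here beside those of all genes tested, and nothing is read from them, since the same contrast chose the members. limma on log2(normalized count + 1), with Benjamini-Hochberg adjustment over 15003 genes, called 0 of the 6, whose median log2 difference was 0.05, at an adjusted p under 0.05, against 0.0200% of genes tested. At an unadjusted p under 0.05 limma called 1 of the 6, Miat, against 1.66% of genes. The authors' deposited table calls 1 of the 6, Miat, against 0.113% of genes. Both Opn4-DTA/DTA libraries lay above both WT libraries in 2 of the 6, against 11.2% of genes, and the groups lay apart in either direction in 2 of the 6, against 23.5%. Miat passed the adjusted threshold in limma when WT library a or WT library b was left out, where 306 and 237 genes passed in all. In those fits the lone WT library is assumed to vary like the Opn4-DTA/DTA pair.

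Miat was also set beside the other long noncoding RNAs of the table. By RefSeq 1663 genes of the table are long noncoding RNAs, of which 531 were tested. Their median log2 difference was -0.02, against 0.00 for all genes tested. Limma called 0 of the 531 at an adjusted p under 0.05, against 3 of all 15003 genes tested. At an unadjusted p under 0.05 it called 17 of the 531, against 249 of the 15003 (1.66%). The authors' deposited table calls 2 of the 531, Miat and H19, against 17 of the 15003 (0.113%). Of 37 with a mean of 1000 normalized counts or more, 12 lay above 0. Among these 12, H19 had the highest log2 difference (0.50), Miat the second (0.44) and Meg3 the third (0.19). Below 0, Xist stood at -5.01 and 5031425E22Rik at -0.49, both further from 0 than Miat. Without Xist, the long noncoding RNAs took 6920 and 7067 of every 1000000 counts in WT and 6909 and 7097 in Opn4-DTA/DTA, values that overlapped between the genotypes.

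**Figure D4:**
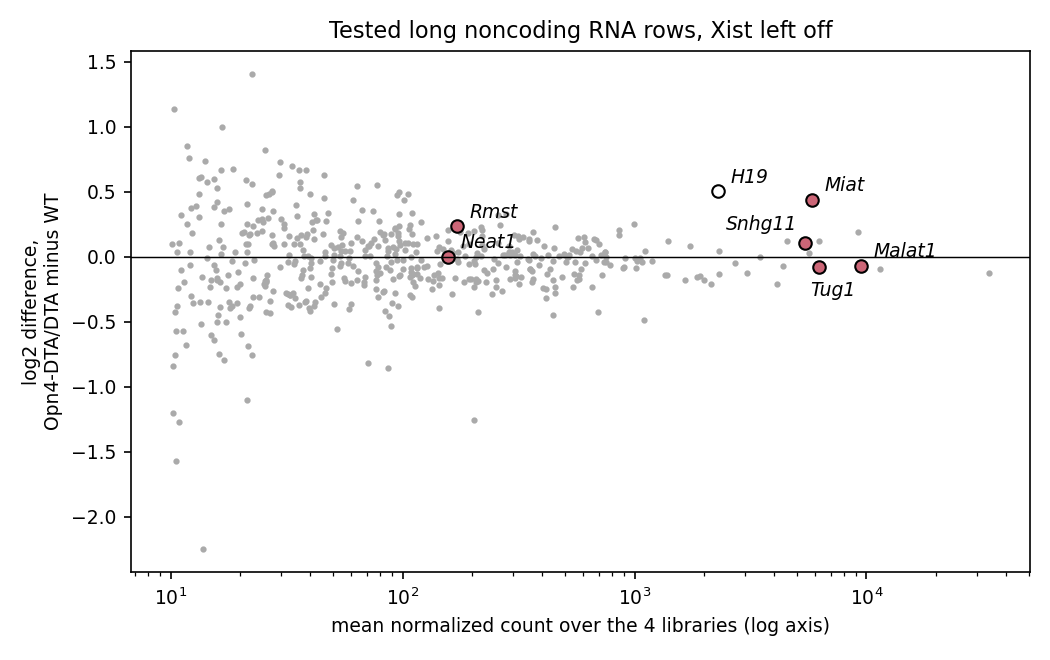
Log2 difference, Opn4-DTA/DTA minus WT, against the mean normalized count (log axis) for the tested long noncoding RNAs, with Xist left off; red points are the 6 noncoding RNAs and the open circle is H19. Among points above a mean of 1000, H19 (0.50) and Miat (0.44) stand above the rest, and Malat1, Tug1 and Snhg11 lie near 0.

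The genes whose pattern over the 4 libraries was most like each member were found among 7302 genes with a mean of 1000 normalized counts or more, by the Euclidean distance of log2 values centred on their mean. For Miat the nearest was H19, an imprinted noncoding RNA, at a distance of 0.0825. H19 stood at 1980 and 1815 normalized counts in WT and 2926 and 2473 in Opn4-DTA/DTA, the same order of libraries as Miat. Next came Ubash3b, a phosphatase of tyrosine kinase signalling, at 0.125, and Rbm3, a cold-induced RNA-binding protein, at 0.165. With 4 libraries many genes share a pattern, and likeness here says nothing on function.

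For Malat1 the nearest were Ccdc72 (0.172), Abca1 (0.174), a cholesterol transporter, and Dync1h1 (0.211), the dynein heavy chain. Abca1, for one, stood at 4716 and 5338 in WT and at 5688 and 4258 in Opn4-DTA/DTA, again with the Opn4-DTA/DTA libraries outermost. The nearest to Tug1 was Cnst (0.0151), before Wdr41 (0.0213) and Snx10 (0.0215). Neat1 was closest to Cnih4 (0.0255), Rrm2b (0.0366) and Gfm2 (0.0366). Rmst was closest to l7Rn6 (0.126), Ccdc56 (0.132) and Jtb (0.168). Snhg11 was closest to 3 genes of matrix and scaffold proteins, Nid1 (0.0514), Akap12 (0.0683) and Lamb1 (0.0691).

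The genes that flank the members on the chromosome were compared next. Beside Miat, 1700028D13Rik had 0 counts in every library. On the other side, 17.6 kb away, the lens crystallin gene Cryba4 stood at 12.8 and 1.53 normalized counts in WT and 19.7 and 12.3 in Opn4-DTA/DTA, where the groups overlapped. Frmd8, next to Neat1, had a log2 difference of 0.03. Smtn and Morc2a on either side of Tug1 stood at 0.05 and -0.03. Nedd1, 520 kb from Rmst, was at 0.10. Beside Snhg11, Ralgapb was at 0.01 and 9430008C03Rik, the older symbol of Snhg17, at -0.03. None of these neighbours passed the threshold in limma.

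Partner proteins and related RNAs of the members were taken from gene lists, and limma called 0 genes in each of these lists. At an unadjusted p under 0.05 it also called 0 in each, except for 1, H19, among the other long noncoding RNAs. Of 4 splicing factors that bind Miat, 2 lay above 0 and the median log2 difference was -0.04. Sf1, the branch-point binding protein, stood at 8397 and 7407 normalized counts in WT and 7549 and 7181 in Opn4-DTA/DTA, with overlapping groups. Celf3 lay lower in both Opn4-DTA/DTA libraries, at 15690 and 15901 in WT and 14516 and 13959 in Opn4-DTA/DTA. Its log2 difference was -0.15 (SE 0.09), which did not pass in limma. Qk, quaking, and Srsf1 were at 0.04 and 0.01.

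Of 20 paraspeckle proteins, the partners of Neat1, 4 lay above 0 and the median log2 difference was -0.02, within a list range of -0.44 to 0.24. The most abundant were Matr3 (-0.01), Hnrnpk (0.00) and the chromatin remodeller Smarca4 (-0.05). The extremes were Nudt21, a subunit of the cleavage factor that shortens Neat1, at 0.24 (SE 0.14), and Hnrnpa1 at -0.44 (SE 0.29). Nudt21 stood at 354 and 416 normalized counts in WT and 464 and 445 in Opn4-DTA/DTA. Hnrnpa1 has many near-identical processed copies, so its low counts are uncertain.

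Among 26 nuclear speckle proteins and SR splicing factors, the company of Malat1, 10 lay above 0 and the median was -0.03. They kept within -0.17 for Prpf8, a core spliceosome protein, and 0.09 for Srsf3. The speckle scaffolds Son and Srrm2 had log2 differences of 0.01 and -0.03. Son stood at 21231 and 23585 in WT and at 24020 and 21112 in Opn4-DTA/DTA, with the Opn4-DTA/DTA libraries outermost as for Malat1.

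Polycomb subunits, of which human TUG1 binds some, had 5 of 18 above 0 and a median of -0.02. The core subunits Suz12 and Eed were at -0.02 and -0.18 (SE 0.11 for Eed), Jarid2 at -0.07, Rbbp4 at 0.10 and Mtf2 at 0.11. Of the SOX2 and neurogenic genes linked to human RMST, Sp8 was at 0 in every library. Of the 6 tested, 3 lay above 0, with a median of -0.01. Sox2 was at -0.11, and the listed Rest and Hey2 at -0.15 and -0.14.

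Host genes of small nucleolar RNAs, the class of Snhg11, had 7 of 19 above 0 and a median log2 difference of -0.05. Gas5, the most abundant, stood at 2927 and 2579 normalized counts in WT and 2627 and 2695 in Opn4-DTA/DTA. Snhg1 and 9430008C03Rik were at -0.04 and -0.03. Snhg4 had the highest value, 0.14 (SE 0.19), and Snhg9 the lowest, -0.34 (SE 0.31), the latter at 32.5 and 27.5 normalized counts in WT and 23.5 and 23.5 in Opn4-DTA/DTA.

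Other named long noncoding RNAs had 12 of 24 above 0 and a median of -0.01. Besides Xist, the most abundant were A930011O12Rik, the host of Mir124a-1, at -0.13, and the imprinted Peg13 at -0.09. A930011O12Rik stood at 29827 and 40761 normalized counts in WT and 28819 and 35434 in Opn4-DTA/DTA. The highest log2 difference was that of Pvt1, 0.63 (SE 0.50), at 37.1 and 12.2 normalized counts in WT and 32.8 and 34.8 in Opn4-DTA/DTA, so that WT library b alone stood apart.

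**Figure D5:**
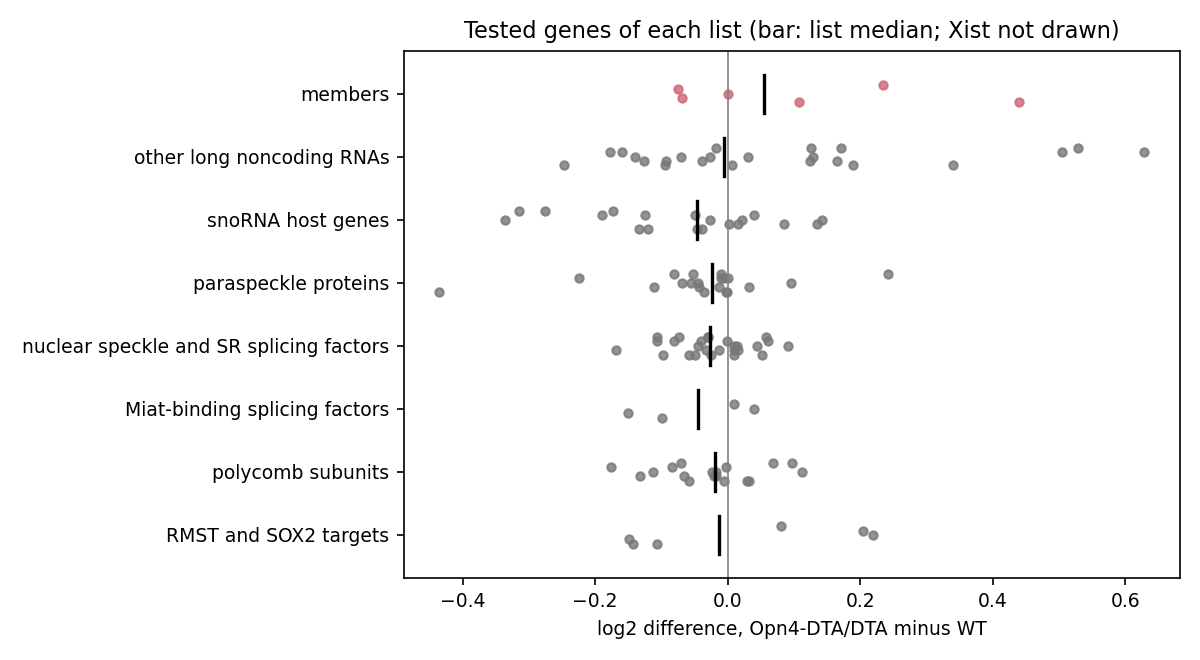
Log2 difference, Opn4-DTA/DTA minus WT, of each tested gene of the lists (points; the 6 noncoding RNAs in red) with the list median (bar); Xist is not drawn. The medians lie between -0.05 and 0.05, and Miat (0.44) stands apart from the splicing factors that bind it, which lie between -0.15 and 0.04.

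Markers of retinal cell types are given beside the RNAs known from those cells, and the part of cell numbers in the level of Miat was not tested. Of 7 progenitor markers, 6 had both Opn4-DTA/DTA libraries above both WT libraries, against 11.2% of all genes, and the median log2 difference was 0.35 (0.27 without Opn4-DTA/DTA library a). Limma called 0 of the 7, with 3 at an unadjusted p under 0.05. Ccnd1, a cyclin of cycling progenitors, stood at 4661 and 5789 normalized counts in WT and at 6282 and 6341 in Opn4-DTA/DTA. Fgf15, a growth factor of progenitors, stood at 87.0 and 78.1 in WT and 117 and 121 in Opn4-DTA/DTA. The summed level of the 7 was 37065 and 42199 in WT and 37767 and 39424 in Opn4-DTA/DTA. None of the 7 was at 0.

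Leaving aside lens markers, of which 1 was tested, medians of the other cell types lay between -0.30 for bipolar and 0.24 for vessel markers. Horizontal cell markers had a median of 0.01, ganglion cell markers 0.11, microglia markers 0.13 and pigment epithelium markers -0.25. Each of these medians changed sign when a WT library was left out. Without WT library a the median was -0.18 for horizontal cell and 0.25 for pigment epithelium markers. Without WT library b it was -0.26 for ganglion cell, -0.12 for microglia and -0.75 for pigment epithelium markers. Cone markers had a median of -0.03, within a list range of -0.31 to 1.54. Of 6 bipolar markers, 0 lay above 0 and the median log2 difference was -0.30, between -0.48 and -0.09 with a library left out. In 3 of these 6 both Opn4-DTA/DTA libraries lay below both WT libraries, as in 1840 of the 15003 genes tested. Their sum was 23127 and 28990 normalized counts in WT and 20031 and 23253 in Opn4-DTA/DTA. Of 4 vessel markers, 4 lay above 0 with a median of 0.24, which was -0.04 without WT library b. Limma called 0 genes in the bipolar and vessel lists, with 1 bipolar and 0 vessel markers at an unadjusted p under 0.05. The part of these cells in the levels of the 6 RNAs was not tested.

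Miat is also known from amacrine cells and Muller glia of the mouse retina. Of 5 amacrine markers, 4 lay above 0 with a median log2 difference of 0.12 (0.01 without Opn4-DTA/DTA library a), and their sum was 39209 and 38336 normalized counts in WT and 42930 and 39692 in Opn4-DTA/DTA. The extremes were Tfap2a, a transcription factor, at 0.14 and Slc6a9, a glycine transporter, at -0.06. Muller glia markers had 1 of 5 above 0 and a median of -0.04, and their sum was 67991 and 67481 in WT and 64592 and 66028 in Opn4-DTA/DTA. Limma called 0 genes in both lists, with 0 at an unadjusted p under 0.05. None of these markers was at 0.

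Rods, the photoreceptors tied to Tug1, had 0 of 6 markers above 0 and a median log2 difference of -0.16. Leaving out WT library a gave a median of -0.01, and leaving out WT library b one of -0.30. Their sum was 550202 and 467919 normalized counts in WT and 448517 and 456654 in Opn4-DTA/DTA. Limma called 0 of the 6, with 0 at an unadjusted p under 0.05. The part of rod RNA in the level of Tug1 was not tested.

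Ganglion cell markers are given beside Snhg11, since both differed between the WT libraries. The marker sum was 41232 normalized counts in library a and 25206 in library b of WT, and 33671 and 33838 in Opn4-DTA/DTA. Snhg11 likewise stood higher in WT library a than in b, but also differed between the Opn4-DTA/DTA libraries, where the ganglion cell sum was level. The part of ganglion cell RNA in the level of Snhg11 was not tested. Lens markers, which bear on Cryba4 beside Miat, summed to 15.1 and 3.06 normalized counts in WT and 194 and 4.09 in Opn4-DTA/DTA. Of the lens markers Cryaa was at 0 in WT library b and Crygs at 0 in every library but Opn4-DTA/DTA library a.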

How the data were processed

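Per the file headers, the authors deposited for each gene the mean normalized count of each group, a signal made by dividing counts by a size factor. The authors also deposited a shrunken log2 fold change and its error, a score (their test statistic) and p-values, raw and adjusted. Per the submitters' processing notes, FastQC, STAR, HTSeq, DESeq2 and mm10 were used, and no version is listed. The annotation and strand setting of the counting are not given in the sources used here. A second deposited sheet of cone and rod candidates was not used, and 1 empty line was not analysed.

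Each deposited group mean is a sum of whole multiples of 2 fixed steps. All 17757 means above 0 in WT and 18327 in Opn4-DTA/DTA had exactly 1 solution in whole counts, at a relative tolerance of 3e-13. Counts differed by a chi-square per degree of freedom of 30.7 within WT and 21.9 within Opn4-DTA/DTA, so neither pair is a duplicate. A level of 3 counts equals 1.64 to 4.59 normalized counts in these libraries.

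limma 3.58.1 in R 4.3.3 was fitted with a mean-variance trend to log2(normalized count + 1) of 15003 genes with a mean of at least 10, and adjusted by Benjamini-Hochberg at 0.05. Fold changes on this scale understate those of low genes. The fit was also run on simulated counts that varied alike in both groups. The real libraries did not, with a median within-group gap of 0.197 in WT and 0.0949 in Opn4-DTA/DTA on the log2 scale. That run therefore does not vouch for the calls. In each list, the text names genes past the threshold, the 3 with the highest mean and those with the highest and lowest log2 difference. It also names flanking genes and the 3 nearest patterns. A few genes that this rule picks are not reported here. 1700020I14Rik, 5031425E22Rik, Crygs and Meg3 were named in addition after their values were seen. Members and lists were chosen with earlier results of these data known. Alternatives were other pseudocounts, scalings, filters, lengths, thinned counts, no variance trend and leaving out each library.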

Additional observations from a re-analysis of the deposited data

How the results depend on the processing

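The number of genes past the threshold in limma was 3. It lay between 10 and 306 with a library left out, at 0 without the variance trend, and at 17 by the authors' deposited adjusted p. The log2 difference of Miat was 0.30 in the authors' deposited table, which is shrunken. With a library left out, the counts past the threshold lay between 0 and 1 for the 6 noncoding RNAs (Miat), 0 and 2 for the other long noncoding RNAs, 0 and 1 for paraspeckle proteins and 0 and 1 for polycomb subunits (Mtf2). The other long noncoding RNAs were Meg3 and H19 without WT library a, H19 and 1700020I14Rik without WT library b, and Xist without Opn4-DTA/DTA library b. Per kilobase, Neat1 was 7.55 over its longest transcript. Over the full length of the annotated exons that overlap the deposited location, a choice made after seeing the data, Neat1 was also 7.55. Tug1 was 926 over the longest transcript and 639 over such exons, Rmst 59.3 and Snhg11 929 over the longest transcript. For Neat1 and Tug1 these lengths reach beyond the deposited location, so the values are not levels of the whole gene. The cause of these shifts, apart from the lengths themselves and the fewer libraries, was not tested. The other 164 recomputed values moved by less than the spread between libraries or, for counts, by at most 1.5 times. Neat1 changed sign between settings around 0. Scaling by library totals moved the median of all genes by 0.03 on the log2 scale. No paired analysis was possible because the recovered libraries carry no replicate number and could not be tied to samples. With 2 libraries a group, and 101 to 299 counts behind Rmst, small differences could not be seen.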
